A study of Mus musculus with 8 samples.

Results

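Genes of macrophages, dendritic cells and neutrophils were followed in RNA from whole mouse colon. The list holds 39 genes chosen by symbol, with earlier results of these data known. Of them, 37 had a probe set that could be matched to their symbol, out of 14351 named genes on the array. Of these 37 genes, 16 are used here as macrophage genes, 9 as genes shared by several myeloid cells, 4 as dendritic cell genes and 8 as neutrophil genes. Cd68 and Clec7a were not analysed here. The study has 3 arrays of wild type colon (WT) and 3 of colon labelled STAT5b-/-, all from adult mice, the latter by its label lacking the transcription factor STAT5b. A REF sample with the wild type genotype was deposited as 2 columns that differed by at most 2.47e-07 of their value and counts as 1 sample; what REF stands for is not given in the labels. All mice were female except that of STAT5b-/- replicate 1, which was male, and the labels give no age beyond adult, no strain and no treatment. By its sex, STAT5b-/- replicate 1 came from another animal than the other arrays. Nothing in the labels says whether the remaining replicates are separate animals. The p-values therefore measure the spread between these arrays, which may be partly or, within WT, wholly technical.

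The deposited values are ratios, with the average of the 3 WT arrays set to 1 in every probe set, so levels of different genes cannot be compared. For the same reason the tissue label could not be checked by the level of its markers. Array medians over all probe sets were between 0.948 and 1.04. Stat5b itself was not lower in the arrays labelled STAT5b-/- (ratios 1.16, 1.17 and 1.26, against 1.08, 0.930 and 0.993 in WT; log2 fold change 0.26 ± 0.12, SE; limma adjusted p = 0.175), and which part of the gene the deletion takes out is not given, so a probe set outside that part would check nothing. Every direction below therefore depends on the labels being right. Whole tissue was measured, so fewer cells of a type and less RNA per cell cannot be told apart.

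The colon wall holds a dense population of resident macrophages beneath the epithelium, which are replenished from blood monocytes, take up dying cells and bacteria, and depend on signals through the M-CSF receptor. Dendritic cells carry antigen from the mucosa to lymph nodes and depend on the Flt3 receptor. Neutrophils are short-lived granulocytes that are rare in healthy mucosa and carry preformed granule proteins. STAT5 transmits signals of growth hormone, prolactin and cytokines such as GM-CSF, whose receptors several myeloid cells carry. Many promoters of myeloid genes are known to bind PU.1, a transcription factor of the ETS family whose sites contain GGAA.

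Promoter sequences of 5 members are shown because these genes differ in what they did in the arrays: Mrc1 and Fcgr3 were clearly lower in the STAT5b-/- arrays, C1qb and C1qc are neighbours that were moderately lower, and Ctss was the only member with all 3 STAT5b-/- arrays above all WT arrays. They come from RefSeq, build GRCm38.p6, and run from 250 bases before to 50 bases after the gene's start, read in the direction of transcription. They lie at chr2:14229164-14229463 (Mrc1, plus strand), chr1:171059354-171059653 (Fcgr3, minus strand, the first listed of its starts), chr4:136886151-136886450 (C1qb, minus strand), chr4:136892865-136893164 (C1qc, minus strand) and chr3:95526536-95526835 (Ctss, plus strand). Capitals mark matches to the ETS-type words GAGGAAG and AGGAAGT on either strand, which overlap each other in C1qc and Ctss; all matches in these 5 windows are on the strand opposite to the printed one.
Mrc1: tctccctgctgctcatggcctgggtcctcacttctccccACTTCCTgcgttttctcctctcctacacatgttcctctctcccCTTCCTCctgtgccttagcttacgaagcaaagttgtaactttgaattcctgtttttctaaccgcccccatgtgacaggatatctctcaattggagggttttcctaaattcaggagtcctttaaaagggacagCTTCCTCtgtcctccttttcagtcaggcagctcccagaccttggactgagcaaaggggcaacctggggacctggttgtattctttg
Fcgr3: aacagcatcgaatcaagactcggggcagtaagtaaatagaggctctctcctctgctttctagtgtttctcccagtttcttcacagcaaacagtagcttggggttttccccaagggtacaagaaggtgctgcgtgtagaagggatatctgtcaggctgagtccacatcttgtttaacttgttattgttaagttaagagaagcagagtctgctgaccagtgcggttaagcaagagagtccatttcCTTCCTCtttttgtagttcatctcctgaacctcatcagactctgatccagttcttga
C1qb: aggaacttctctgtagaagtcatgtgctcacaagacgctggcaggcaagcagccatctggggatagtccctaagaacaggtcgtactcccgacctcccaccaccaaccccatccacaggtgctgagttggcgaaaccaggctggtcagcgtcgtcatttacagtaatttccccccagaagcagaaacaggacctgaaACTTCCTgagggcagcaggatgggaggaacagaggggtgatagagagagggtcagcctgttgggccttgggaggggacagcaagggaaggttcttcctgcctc
C1qc: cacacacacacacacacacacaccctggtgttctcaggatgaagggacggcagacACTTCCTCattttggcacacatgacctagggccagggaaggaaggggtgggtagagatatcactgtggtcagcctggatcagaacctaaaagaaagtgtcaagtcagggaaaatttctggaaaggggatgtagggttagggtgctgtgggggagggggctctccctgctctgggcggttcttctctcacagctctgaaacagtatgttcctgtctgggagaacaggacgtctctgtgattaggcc
Ctss: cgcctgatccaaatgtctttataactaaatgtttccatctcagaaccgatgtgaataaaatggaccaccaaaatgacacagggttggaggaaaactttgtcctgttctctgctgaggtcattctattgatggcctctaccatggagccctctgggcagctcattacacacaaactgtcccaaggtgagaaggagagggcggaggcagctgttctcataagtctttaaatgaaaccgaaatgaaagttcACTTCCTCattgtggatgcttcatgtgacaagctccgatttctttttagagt

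A promoter was found for 28 of the 37 genes, with 31 windows in all. The windows shown above all hold a match, whereas others, such as those of Ms4a7 and Itgax, hold neither ETS-type word. GAGGAAG occurred on either strand in 14 of the 31 windows (45.2%), against 13.6% of all 32851 windows of the same length. AGGAAGT, which shares 6 of its letters with the first word, occurred in 11 (35.5%), against 9.35% of all. Among genes lower in the STAT5b-/- arrays GAGGAAG was present in 5 of 11, and among the others in 8 of 17; AGGAAGT was present in 6 of 11 and in 5 of 17. The STAT-type palindrome TTCNNNGAA was found in 1 member window, that of Fcgr1 (3.23%, against 8.30% of all windows), and the AP-1 type word TGANTCA in 3 (9.68%, against 7.81%), those of Folr2, Itgax and Ms4a7. The 4 words were chosen after the counts of 8 spellings had been seen, a match is a description of letters and not a binding site, and no test was made.

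Most macrophage genes of the list, some of the genes shared by myeloid cells and 1 neutrophil gene fell in the STAT5b-/- arrays, and no dendritic gene was called. Of the 37 genes, 16 fell and 0 rose by limma at an adjusted p under 0.05 over all genes, which is 43.2% of the list against 8.42% of all genes called lower and 13.3% called higher. By class, 11 of 16 macrophage genes fell, 4 of 9 shared myeloid genes, 0 of 4 dendritic genes and 1 of 8 neutrophil genes, Cd177. Class medians of the log2 fold change were -0.82, -0.56, -0.18 and -0.83, against 0.01 over all genes. All 3 STAT5b-/- arrays lay below all 3 WT arrays in 24 of the 37 genes (64.9%, against 16.5% of all genes) and above them in 1 (2.70%, against 25.0%). Because the members were chosen with earlier results of these data known, these shares describe the list and are not independent support. Without WT replicate 2, in which 27 of the 37 genes were highest among the WT arrays, 14 fell and 2 rose, against 9.47% and 15.3% of all genes. With REF added to the WT group 17 fell and 0 rose (9.51% and 15.1% of all genes), and with REF in place of WT replicate 2, a setting added after seeing the data, 19 fell and 2 rose (11.0% and 18.2%). After quantile normalization across the arrays 6 fell and 0 rose (1.58% and 1.15% of all genes). Those 6 were Adgre1, Mrc1, Folr2, Fcgr3, Fcgr2b and Cd177, so that 3 of 16 macrophage genes were then called. Of these Adgre1 lay at the threshold (limma adjusted p = 0.05 after rounding), and Lyz2 and Cd14 just missed it (0.0528 each). The log2 ratios to the WT mean spread less in WT arrays (SD 0.289 to 0.363) than in STAT5b-/- arrays (0.646 to 0.737). Quantile normalization gives all 6 arrays the same distribution, so it narrows the STAT5b-/- values and widens the WT values.

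**Figure D1:**
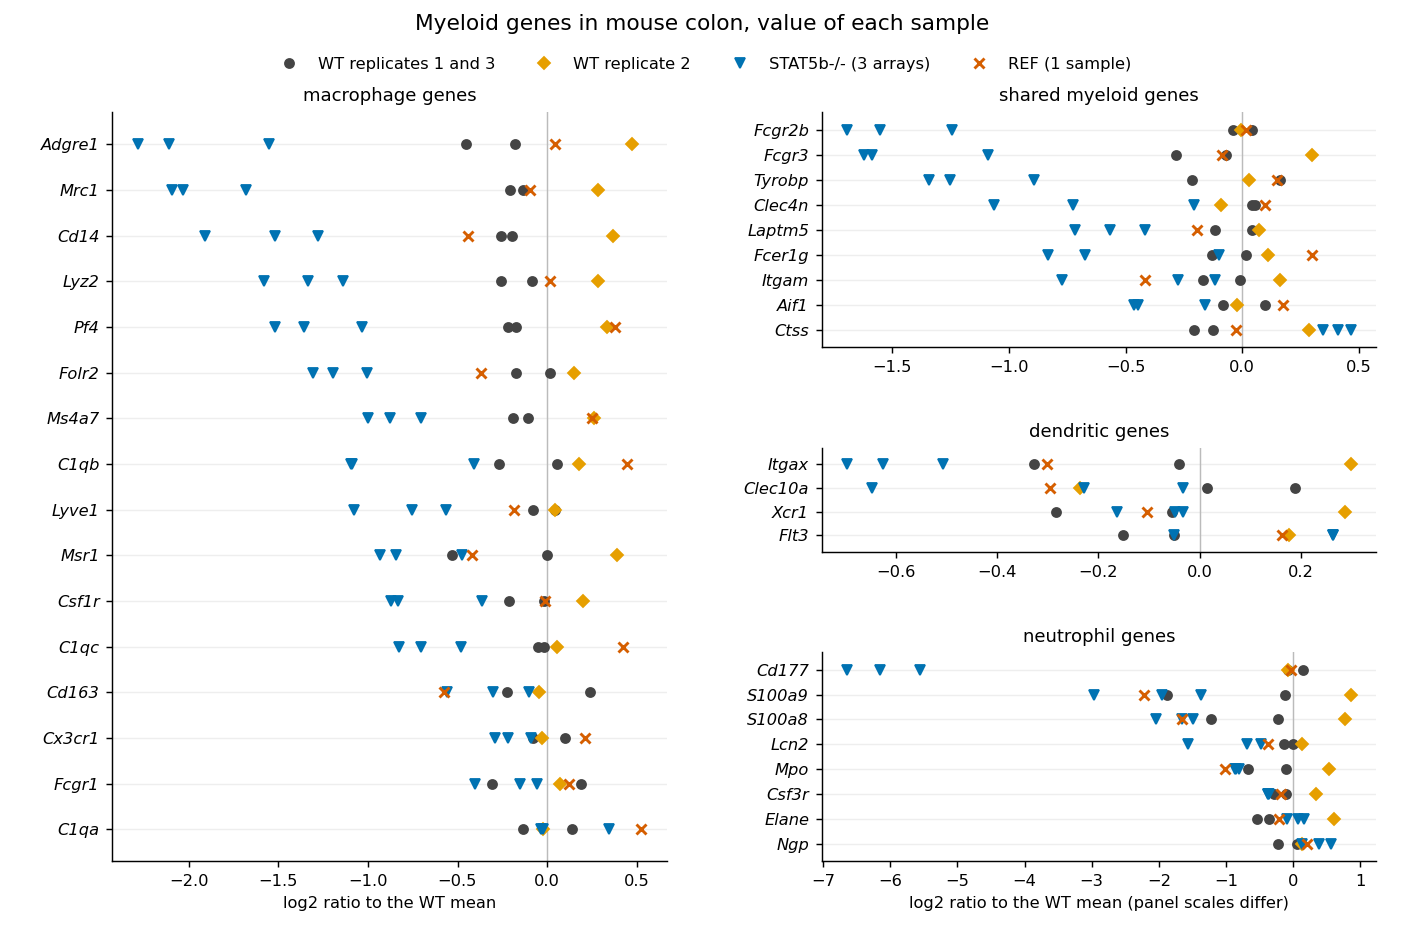
Log2 ratio to the WT mean (horizontal axis, scales differ between panels) of the 37 myeloid genes in each sample: WT replicates 1 and 3 (grey circles), WT replicate 2 (orange diamonds), the 3 STAT5b-/- arrays (blue triangles) and REF (red crosses). Most macrophage genes have all blue triangles to the left of all WT points, whereas in the neutrophil panel WT replicate 2 stands far to the right for S100a8 and S100a9 and Cd177 alone is shifted to about -6.

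Among surface receptors of macrophages, Adgre1, the classical surface marker of mouse macrophages, had ratios of 0.731, 1.39 and 0.883 in WT, 0.232, 0.205 and 0.341 in STAT5b-/- and 1.03 in REF. The groups did not overlap, WT replicate 2 was the highest array, and the gene fell by 1.93 ± 0.29 on the log2 scale (3.81-fold; limma adjusted p = 0.00503); without WT replicate 2 it fell by 1.67. Mrc1, the mannose receptor of tissue macrophages, had ratios of 0.866, 1.22 and 0.912 in WT, 0.244, 0.234 and 0.312 in STAT5b-/-, and 0.937 in REF. All wild type samples were therefore more than 2-fold above the highest STAT5b-/- array, and Mrc1 fell by 1.92 ± 0.19 (3.78-fold; adjusted p = 0.00107). Folr2, a folate receptor of resident macrophages, had 0.887, 1.11 and 1.01 in WT and 0.405, 0.436 and 0.498 in STAT5b-/-, with 0.773 in REF. It fell by 1.16 ± 0.14 (adjusted p = 0.00255), with groups apart and REF between them.

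Cd14, the endotoxin co-receptor, also fell clearly. Its ratios were 0.872, 1.29 and 0.836 in WT, 0.266, 0.349 and 0.412 in STAT5b-/- and 0.735 in REF, a fall of 1.54 ± 0.23 (2.91-fold; adjusted p = 0.00525). Csf1r, the receptor through which M-CSF keeps macrophages alive, changed less: 0.864, 1.15 and 0.987 in WT, 0.546, 0.561 and 0.778 in STAT5b-/- and 0.991 in REF. It fell by 0.68 ± 0.19 (adjusted p = 0.0443), and the call ended without any of WT replicates 1, 2 and 3 and STAT5b-/- replicates 1 and 2 (adjusted p = 0.0529, 0.0696, 0.106, 0.141 and 0.146). Lyve1, a hyaluronan receptor of some resident macrophages and of lymphatic endothelium, had 0.946, 1.03 and 1.03 in WT, 0.474, 0.675 and 0.593 in STAT5b-/- and 0.880 in REF. It fell by 0.80 ± 0.16 (adjusted p = 0.0139, and 0.0507 without STAT5b-/- replicate 3). Ms4a7, a membrane protein of macrophages, has 2 probe sets that moved alike, and their mean was 0.876, 1.20 and 0.929 in WT, 0.544, 0.500 and 0.613 in STAT5b-/- and 1.19 in REF. It fell by 0.85 ± 0.16 (adjusted p = 0.0124, and 0.0571 without STAT5b-/- replicate 2).

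Of the secreted products, lysozyme (Lyz2) had ratios of 0.944, 1.22 and 0.837 in WT, 0.334, 0.396 and 0.454 in STAT5b-/- and 1.01 in REF. The groups were well apart, and Lyz2 fell by 1.33 ± 0.19 (2.52-fold; adjusted p = 0.00416). The chemokine Pf4, made by resident macrophages and by platelets, had 0.885, 1.26 and 0.859 in WT, 0.349, 0.391 and 0.489 in STAT5b-/- and 1.30 in REF, which was thus the highest of all samples. It fell by 1.28 ± 0.20 (adjusted p = 0.00626).

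The remaining macrophage receptors did not pass the test. Msr1, a scavenger receptor, had ratios of 0.692, 1.31 and 0.999 in WT and 0.558, 0.523 and 0.720 in STAT5b-/-, which overlap through WT replicate 1 and STAT5b-/- replicate 3 (log2 fold change -0.70, 95% interval -1.31 to -0.10; adjusted p = 0.0966, and 0.0322 without WT replicate 1). Cd163, which takes up haemoglobin bound to haptoglobin, had a log2 fold change of -0.31 (-0.74 to 0.12) and a lower ratio in REF, 0.671, than in any other sample. For the fractalkine receptor Cx3cr1 the change was -0.20 (-0.49 to 0.10), although its 3 STAT5b-/- arrays (0.817 to 0.941) lay just below the WT arrays (0.948 to 1.07). For the high-affinity IgG receptor Fcgr1 it was -0.19 (-0.60 to 0.23). These intervals leave out falls as large as those of Adgre1 or Mrc1. Within an array, the log2 ratio of Mrc1 minus that of Cd163 was 0.02, 0.34 and -0.37 in WT and -1.73, -1.53 and -1.58 in STAT5b-/-, with no overlap between the groups (difference -1.61). This and the other differences within an array were chosen after the values were seen and carry no test.

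The 3 chains of complement C1q, which macrophages secrete and which assemble into 1 molecule, are encoded side by side on chromosome 4 with no protein-coding gene between them, and in the STAT5b-/- arrays C1qa stood apart from the other chains. C1qb had ratios of 1.04, 1.13 and 0.829 in WT, 0.470, 0.468 and 0.753 in STAT5b-/- and 1.36 in REF. C1qc had 0.989, 1.04 and 0.966 in WT, 0.563, 0.614 and 0.718 in STAT5b-/- and 1.34 in REF. Both fell, C1qb by 0.85 ± 0.23 (adjusted p = 0.0399) and C1qc by 0.67 ± 0.14 (adjusted p = 0.0146), with no overlap between the groups. C1qa, in contrast, had 1.10, 0.983 and 0.912 in WT, 0.975, 0.983 and 1.27 in STAT5b-/- and 1.44 in REF, with overlapping groups and a log2 fold change of 0.10 (95% interval -0.27 to 0.47; adjusted p = 0.712). The sign of this small value turned with REF added to WT (-0.04) or without STAT5b-/- replicate 3 (-0.03). C1qa minus the mean of C1qb and C1qc was 0.13, -0.15 and 0.03 in the WT arrays and 0.10 in REF, but 0.92, 0.87 and 0.78 in the STAT5b-/- arrays. The call of C1qb ended without any of WT replicates 1, 2 and 3 and STAT5b-/- replicates 1 and 2 (adjusted p = 0.0945, 0.0657, 0.0524, 0.133 and 0.134), and that of C1qc without STAT5b-/- replicate 1 or 2 (0.0528 and 0.0639). Each chain is read by 1 probe set, and REF was above all WT arrays in all 3 chains.

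Fc receptors, which bind the tail of IgG, and their signalling adaptors are shared by macrophages, other myeloid cells, mast cells and, for Fcgr2b, B cells. Fcgr2b, the inhibitory receptor, had ratios of 0.974, 0.996 and 1.03 in WT, 0.341, 0.309 and 0.422 in STAT5b-/- and 1.01 in REF. Its 4 wild type samples were nearly equal, and it fell by 1.50 ± 0.15 (2.82-fold; adjusted p = 0.00112). Fcgr3, the activating low-affinity receptor encoded near it on chromosome 1, had 0.821, 1.23 and 0.952 in WT, 0.333, 0.325 and 0.470 in STAT5b-/- and 0.941 in REF. It fell by 1.41 ± 0.21 (adjusted p = 0.00518), by about as much as Fcgr2b. Fcgr2b and Fcgr3 have similar extracellular parts, and whether their probes read each other was not tested. The difference Fcgr2b minus Fcgr1 within an array was 0.27, -0.08 and -0.14 in WT and -1.15, -1.54 and -1.19 in STAT5b-/-, again with no overlap.

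Tyrobp, the adaptor DAP12 of many activating myeloid receptors, had ratios of 1.12, 1.02 and 0.862 in WT, 0.394, 0.420 and 0.538 in STAT5b-/- and 1.11 in REF, and fell by 1.16 ± 0.17 (adjusted p = 0.00486). Fcer1g, the common gamma chain of activating Fc receptors, had 0.913, 1.08 and 1.01 in WT, 0.626, 0.561 and 0.932 in STAT5b-/- and 1.23 in REF. Its groups overlapped through STAT5b-/- replicate 3, and its log2 fold change of -0.53 (95% interval -1.03 to -0.04) did not pass (adjusted p = 0.118, and 0.0362 without that array). Laptm5, a lysosomal protein of leukocytes, fell by 0.56 ± 0.13 (adjusted p = 0.0260), from 1.03, 1.05 and 0.921 in WT to 0.676, 0.609 and 0.749 in STAT5b-/-, with 0.875 in REF; the call ended without WT replicate 1 (0.0721) or without any of the STAT5b-/- arrays (0.0787, 0.100 and 0.0524).

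The other shared genes were not called. The integrin Itgam (CD11b) had a log2 fold change of -0.38 (95% interval -0.86 to 0.09), the actin-binding protein Aif1 (IBA1) one of -0.35 (-0.68 to -0.03) and the fungal receptor Clec4n (dectin-2) one of -0.66 (-1.19 to -0.14). Clec4n passed without STAT5b-/- replicate 1 (adjusted p = 0.0260, against 0.0774 with all arrays) and with REF added to WT (0.0366). Ctss, cathepsin S, which trims the invariant chain for antigen presentation, went the other way: 0.916, 1.22 and 0.866 in WT, 1.27, 1.38 and 1.33 in STAT5b-/- and 0.982 in REF. The groups did not overlap, but the change of 0.42 ± 0.16 did not pass (adjusted p = 0.111); without WT replicate 2 it was 0.57 (adjusted p = 0.0153). Against Lyz2 in the same array, Ctss differed by -0.04, 0.00 and 0.05 in WT and by -0.04 in REF, and by 1.93, 1.80 and 1.55 in STAT5b-/-. Markers of absorptive epithelium also moved: of 6 epithelial genes 2 rose, Krt20 and Vil1 (adjusted p = 0.0151 and 0.0179), and 1 fell, Krt18 (0.0446). The calls of Krt20 and Vil1 ended without 1 or another array (up to 0.0675 and 0.0809). That of Krt18 ended whichever array was left out (0.0557 to 0.153). After quantile normalization Krt20, Vil1 and Krt18 were not called (0.205, 0.204 and 0.354). Over all genes 13.3% rose and 8.42% fell. Without WT replicate 2, 3 epithelial genes rose and 0 fell, against 15.3% and 9.47% of all genes. The part of epithelial cells in the Ctss value was not tested.

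**Figure D2:**
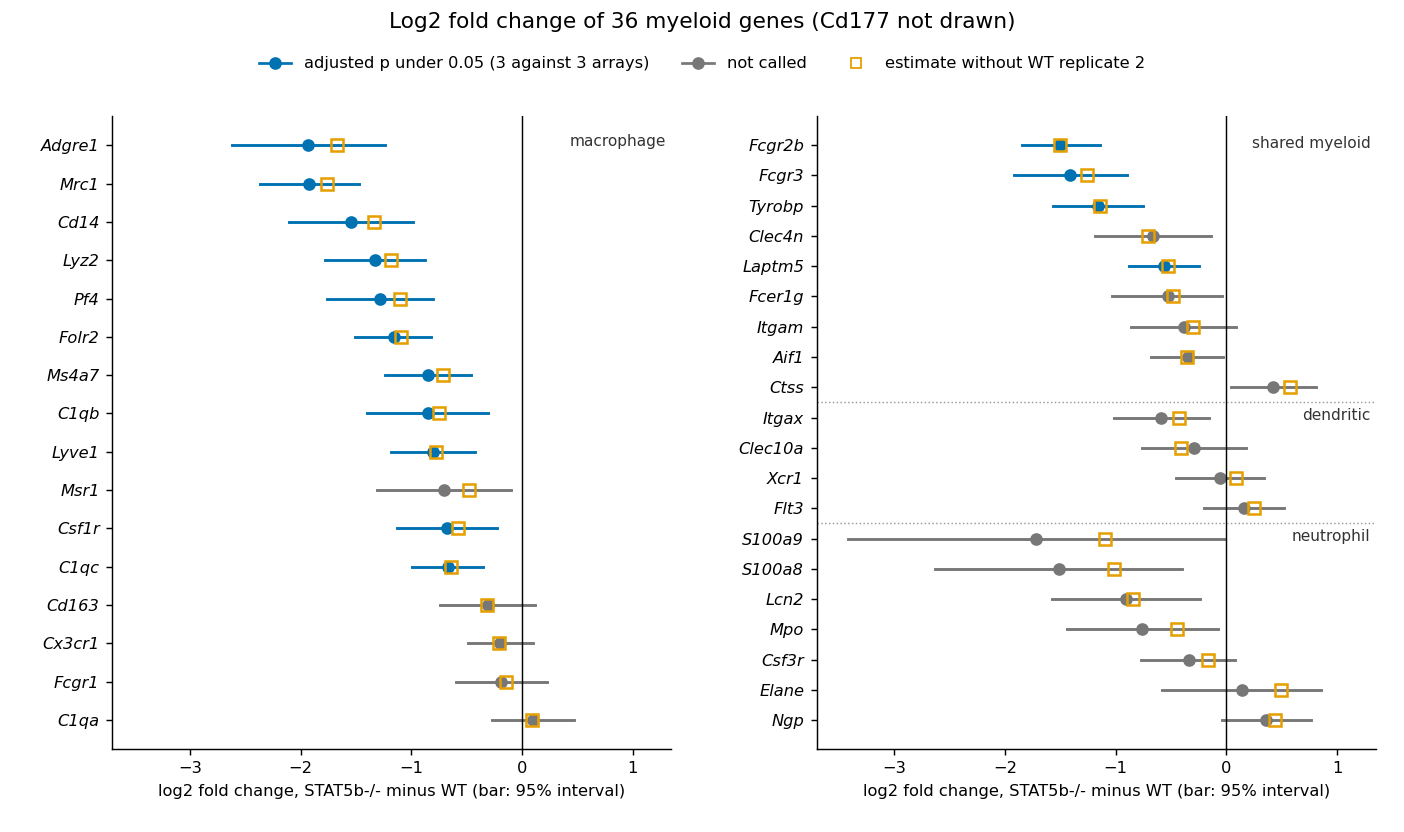
Log2 fold change of STAT5b-/- against WT (horizontal axis) for 36 myeloid genes, with the 95% interval of the fit over 3 against 3 arrays; blue marks genes at an adjusted p under 0.05, grey the others, and orange squares the estimate without WT replicate 2. Cd177 is left out because its change of -6.12 would compress the axis. Squares lie close to the circles for Fcgr2b, Tyrobp and C1qc and well to the right of them for S100a8, S100a9, Mpo and Elane.

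None of the 4 dendritic cell genes passed. Itgax, the integrin CD11c, which gut macrophages carry as well, was lowest in the STAT5b-/- arrays, with ratios of 0.617, 0.704 and 0.648 against 0.797, 1.23 and 0.972 in WT and 0.812 in REF. The groups did not overlap, but the log2 fold change of -0.59 (95% interval -1.02 to -0.16) missed the threshold (adjusted p = 0.0607, and 0.0341 without WT replicate 1). Clec10a, a lectin of dendritic cells and macrophages, had 1.01, 0.849 and 1.14 in WT, 0.639, 0.854 and 0.977 in STAT5b-/- and 0.815 in REF, with overlapping groups and a change of -0.29 (-0.76 to 0.18). Flt3, the growth factor receptor of dendritic cells, had 0.901, 1.13 and 0.966 in WT, 0.965, 1.20 and 1.20 in STAT5b-/- and 1.12 in REF, a change of 0.16 (-0.20 to 0.52). Xcr1, the chemokine receptor of cross-presenting dendritic cells, had a change of -0.06 (-0.46 to 0.34), and its sign turned without WT replicate 2 (0.09). For Flt3 and Xcr1 the intervals leave out a fall of the size seen for Lyz2 or Fcgr2b.

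Neutrophil genes differed among the wild type samples themselves. S100a8 and S100a9, the subunits of calprotectin encoded side by side on chromosome 3, had ratios of 0.858, 1.71 and 0.429 and of 0.923, 1.81 and 0.272 in WT, a span of 3.99-fold and 6.63-fold. In the STAT5b-/- arrays they had 0.242, 0.316 and 0.354 and 0.128, 0.258 and 0.385, and in REF 0.319 and 0.215. WT replicate 2 was high, while WT replicate 3 and REF lay near or within the STAT5b-/- range. Their log2 fold changes were -1.51 ± 0.47 and -1.72 ± 0.71, neither past the threshold (limma adjusted p = 0.0624 and 0.139). Both passed without WT replicate 3 (0.0150 and 0.0304), and without WT replicate 2 the changes were -1.02 and -1.10 (0.0566 and 0.242).

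The granule enzymes were also highest in WT replicate 2. Mpo, myeloperoxidase, had 0.628, 1.44 and 0.931 in WT, 0.574, 0.549 and 0.554 in STAT5b-/- and 0.493 in REF, the lowest of all samples (log2 fold change -0.76 ± 0.29; adjusted p = 0.109, and 0.0243 without WT replicate 1). Elane, neutrophil elastase, had 0.687, 1.53 and 0.781 in WT and 1.12, 0.933 and 1.05 in STAT5b-/-, with 0.861 in REF. Its change of 0.14 (95% interval -0.58 to 0.85) became 0.49 without WT replicate 2 (adjusted p = 0.0443) and -0.09 without WT replicate 1, so its direction rested on which WT arrays were used. The G-CSF receptor Csf3r and the granule protein Ngp had changes of -0.34 (-0.77 to 0.08) and 0.36 (-0.04 to 0.76). Leaving out Lcn2 and Cd177, 0 of the other 6 neutrophil genes were called, the class median was -0.55 (-0.31 without WT replicate 2, when Elane was called higher), and REF, at a median of -0.62, was as low as the STAT5b-/- arrays (-0.58 to -0.62).

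The remaining 2 genes of the class are known from epithelium as well as from neutrophils. Cd177, a surface protein of neutrophils that colon epithelium also makes, had 1.11, 0.951 and 0.943 in WT and 0.974 in REF, but 0.0140, 0.0100 and 0.0212 in the STAT5b-/- arrays. One of these, replicate 2, was at 0.01, the lowest value in the table, and with that array taken at this value the log2 fold change was -6.12 ± 0.27 (adjusted p = 8.22e-05). It was -5.85 without that array, -4.22 after quantile normalization and -4.01 with a pseudocount of 0.05, and the gene was called in each. Within an array, Cd177 minus the mean of S100a8 and S100a9 was 0.31, -0.89 and 1.46 in WT, 1.90 in REF and -3.65, -4.83 and -4.12 in STAT5b-/-, the second of these with Cd177 at 0.01. Lcn2, the iron-withholding lipocalin that inflamed epithelium also makes, had 1.00, 1.09 and 0.906 in WT, 0.338, 0.715 and 0.621 in STAT5b-/- and 0.772 in REF. Its groups were apart, yet the change of -0.91 ± 0.28 did not pass (adjusted p = 0.0625).

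**Figure D3:**
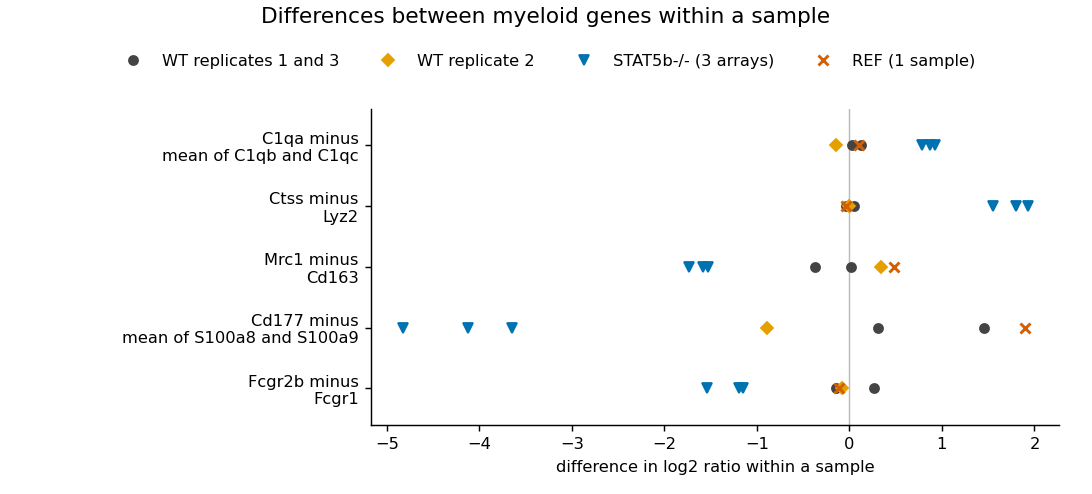
Difference in log2 ratio between myeloid genes within a sample (horizontal axis) for 5 comparisons chosen after the values were seen: grey circles and orange diamonds are the WT arrays, blue triangles the 3 STAT5b-/- arrays and red crosses REF. In all 5 comparisons the STAT5b-/- arrays lie apart from the WT arrays, and REF lies on the WT side.

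WT replicate 2 and REF, both wild type, moved the classes in different ways. WT replicate 2 was the highest WT array in 73.0% of the 37 genes, against 48.9% of all genes, and exceeded WT replicates 1 and 3 by a median of 0.30 for macrophage, 0.11 for shared, 0.37 for dendritic and 0.72 for neutrophil genes on the log2 scale (0.08 over all genes). It was highest in 7 of the 8 neutrophil genes. Of 6 mast cell markers 5 were also highest in that array among the WT arrays, with a median of 1.98 over the 6, whereas Kit was lowest there (-0.83). Pan-leukocyte markers were not high in it (0.02). REF lay below all WT arrays in 11 of the 37 genes (29.7%, against 28.2% of all genes), within their range in 17 (45.9%, against 51.6%) and above in 9 (24.3%, against 20.1%), shares near the background. By class, REF was above all 3 STAT5b-/- arrays in 15 of 16 macrophage genes, Cd163 being the exception, in 7 of 9 shared genes, 1 of 4 dendritic genes and 3 of 8 neutrophil genes (24.2% of all genes). The 15 macrophage genes include C1qa, Msr1 and Fcgr1, whose WT and STAT5b-/- arrays overlap.

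**Figure D4:**
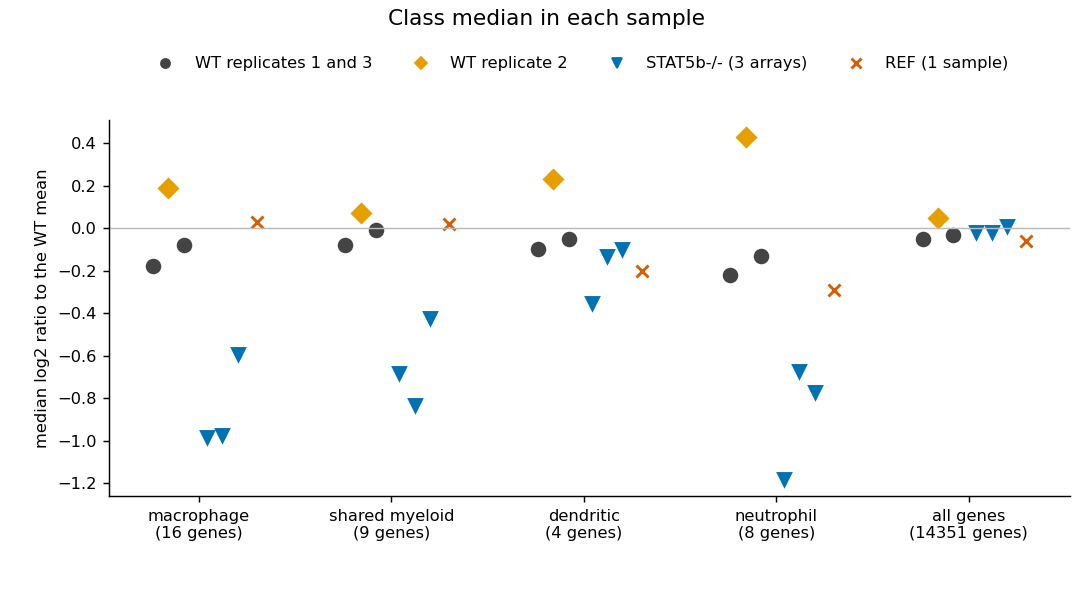
Median log2 ratio to the WT mean (vertical axis) of each class of myeloid genes and of all genes, in each sample. For macrophage genes the STAT5b-/- arrays (-0.98, -0.97 and -0.59) lie below the WT arrays and REF (-0.18 to 0.19), for dendritic genes the groups overlap, and all genes stay between -0.06 and 0.05.

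Further genes of myeloid biology, from lists drawn up beside the members, moved in both directions. Over all genes 8.42% were called lower and 13.3% higher, so in short lists a count near these shares says little about the list. Of 10 growth factors and receptors 3 fell and 0 rose: Csf2rb, the common beta chain of the GM-CSF receptor, which signals through STAT5, fell by 1.47 ± 0.22, its close relative Csf2rb2 fell by 2.48 ± 0.26 and the Kit ligand Kitl fell by 0.71 ± 0.12. For the M-CSF receptor's ligands Csf1 and Il34 the changes were -0.33 ± 0.19 and -0.20 ± 0.21 (adjusted p = 0.260 and 0.555). Of 15 transcription factors 4 fell and 1 rose. Gfi1, a repressor in granulocytes and in secretory epithelium, fell by 2.55 ± 0.14, Irf4 fell by 2.24 ± 0.20 and Zeb2 fell by 0.73 ± 0.17, while Irf8, a factor of monocytes and cross-presenting dendritic cells, rose by 0.65 ± 0.12. PU.1 itself (Spi1) had 0.872, 1.41 and 0.715 in WT and 0.424, 0.574 and 0.760 in STAT5b-/-, with overlapping groups (adjusted p = 0.136). Of 14 further resident and scavenger macrophage genes 3 fell and 3 rose: Hpgds by 1.76 ± 0.20, Axl by 0.82 ± 0.13 and Stab1 by 0.93 ± 0.20 downward, and Slco2b1 by 1.12 ± 0.16, the engulfment receptor Mertk by 0.91 ± 0.22 and Cbr2 by 1.01 ± 0.27 upward. Median log2 fold changes of these 3 lists were -0.27, 0.02 and -0.13; the last turned to 0.12 without WT replicate 2. The calls of Zeb2, Stab1, Mertk and Cbr2 each ended without 1 or another array, with adjusted p up to 0.0764, 0.0738, 0.0952 and 0.122.

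Among 8 monocyte genes 3 fell and 0 rose (median -0.79), where 8.42% of all genes were called lower and 13.3% higher. Of these monocyte genes F13a1 fell by 1.47 ± 0.17 and Ccr2, the receptor by which monocytes leave bone marrow, fell by 0.89 ± 0.24 (adjusted p = 0.0388). The call of Ccr2 ended without WT replicate 2 (0.0592), with REF added to WT (0.0501) and without WT replicate 3 or any STAT5b-/- array (up to 0.131). Of 11 further dendritic cell genes 3 fell and 1 rose, with a median of -0.49 (-0.24 without WT replicate 2): Cd83 fell by 1.04 ± 0.13, Cd209a by 0.89 ± 0.20 and Ccr7 by 0.71 ± 0.17, and Ly75 rose by 0.66 ± 0.16. Of 11 further neutrophil genes 2 fell, Il1b by 0.64 ± 0.15 and Pglyrp1 by 0.80 ± 0.20, and 0 rose; the median was -0.39, and 0.00 without WT replicate 2. Cd209a, Ccr7, Ly75, Il1b and Pglyrp1 each lost their call without 1 or another array (adjusted p up to 0.0829, 0.101, 0.0957, 0.0838 and 0.108), whereas Cd83 and F13a1 kept it whichever array was left out.

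Markers of other cells that share some of these genes moved too. The counts below stand against 8.42% of all genes called lower and 13.3% called higher (9.47% and 15.3% without WT replicate 2). Of 8 pan-leukocyte genes 6 fell and 0 rose, with array medians of -0.12 to 0.10 in WT and -1.17 to -0.86 in STAT5b-/-; among them Ptprc (CD45) fell by 0.84 ± 0.13. Mast cell markers fell in 3 of 6, and in 5 without WT replicate 2 (-0.94 to 0.98 in WT, -2.10 to -1.78 in STAT5b-/-), B and plasma cell markers in 2 of 6 (-0.51 to 0.57 and -2.23 to -1.23), eosinophil markers in 1 of 5 (-0.30 to 0.27 and -1.36 to -0.73) and fibroblast markers in 5 of 6 (-0.17 to 0.11 and -1.10 to -0.66), with 0 risen in each. T cell markers went partly the other way, as Cd3e, Cd3d and Cd3g rose and Cd2 fell among 6. Endothelial markers had 1 of 5 lower, Tek, and smooth muscle markers 0 of 5 called. Over all lists drawn up beside the members, not only these marker lists, 28 of the 54 called genes kept their call whichever array was left out. After quantile normalization 11 of the 54 kept it. Cd3e, Cd3d and Cd3g were not among either group. No marker's level could be set against 0, and the part of these cells in the values of shared genes such as Fcgr2b, Fcgr3, Lyve1 and Pf4 was not tested.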

How the data were processed

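RNA of whole adult mouse colon was hybridised to 8 Affymetrix arrays, from 100 ng of total RNA amplified once, per the labels' protocols. RMA is named in the submitters' processing notes, with no version. The deposited values are linear ratios: in each of the 26180 probe sets the WT mean is 1 to within 1.87e-07, and the lowest value is 0.01, reached by 19 probe sets. This division leaves fold changes within a gene as they are and removes levels between genes, so no dim probe set could be filtered out.

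Probe set accessions were matched without version to RefSeq (GRCm38.p6): 15228 matched 1 symbol and 10952 none, giving 14351 genes. Log2 ratios without pseudocount were averaged over a gene's probe sets and compared with limma 3.58.1 in R 4.3.3 (lmFit, eBayes; 3 against 3 arrays), p-values adjusted by Benjamini-Hochberg across all genes, and called at an adjusted p under 0.05. Errors are standard errors of the fit; intervals are 95%. The code was tested on simulated data. REF was not tested against WT. Array number limits precision. Every measured member is named, with array values for called members and the leading ones of other classes; of each other list up to 3 called genes with the smallest p are named in full, and further ones were chosen after their values were seen; a few called genes of these lists are not reported here. Members, lists and classes were chosen with earlier results of these data known. The 5 within-array differences were chosen after values were seen. Alternatives were other scalings, probe set rules, a pseudocount of 0.05, other variance models, REF as wild type, the replicate number as a block, and leaving out each array.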

Additional observations from a re-analysis of the deposited data

How the results depend on the processing

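Leaving out each array in turn gave 11 to 16 members lower and 0 to 2 higher, 663 to 1359 genes lower and 1053 to 2192 higher over all genes. Which members were called changed too: without WT replicate 1, 16 were lower, but only 13 of the 16 main calls were among them. Quantile normalization gave 6 members lower, and 227 genes lower and 165 higher over all genes. It sets equal the log2 spreads of the arrays, which were 0.289 to 0.363 in WT and 0.646 to 0.737 in STAT5b-/-. Of its calls 42.1% were rises, where the main comparison has 61.2%, and the cause of that change in share was not tested. Members called higher numbered 2 without WT replicate 2 and 2 with REF in place of WT replicate 2 (Ctss and Elane in each), against 0. The latter setting gave 19 members lower and a neutrophil median of -0.47. Same-numbered WT and STAT5b-/- arrays deviated from their group means with correlations of 0.04, -0.10 and -0.19, and differently numbered ones with -0.14 to 0.22. With 3 arrays per group these values cannot decide whether the numbers pair the arrays. With the replicate number as a block 12 members were lower and, over all genes, 801 lower and 1238 higher. Signs turned for C1qa (-0.04 with REF added, -0.09 with REF in place of WT replicate 2, -0.03 to 0.17 when an array was left out), Xcr1 (0.01 after quantile normalization, 0.07 with REF in place of WT replicate 2, -0.20 to 0.09 when an array was left out) and Elane (-0.09 to 0.49 when an array was left out). Median centring, the first probe set of a gene, the pseudocount and robust variances each kept all 16 calls, and the variance trend kept 15, without Csf1r. The comparison without STAT5b-/- replicate 1 is also the comparison within females and gave 13 members lower, with 734 genes lower and 1180 higher of all 14351. It kept 12 of the 16 main calls, lost Csf1r, C1qb, C1qc and Laptm5, and gained Clec4n. Signal over background could not be judged from ratios.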

Other observations

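Genes of the phagocyte oxidase, the enzyme with which macrophages and neutrophils make superoxide, did not move together. Its catalytic subunit Cybb fell by 1.12 ± 0.17 on the log2 scale (limma adjusted p = 0.00480), with ratios of 1.03, 1.12 and 0.855 in WT and 0.444, 0.402 and 0.535 in STAT5b-/-. The cytosolic subunit Ncf4 fell by 1.02 ± 0.18, and Ncf1 had a change of -0.31 ± 0.13 that did not pass (adjusted p = 0.141). Cyba, the membrane partner of Cybb, which many other cells also make, rose by 1.01 ± 0.21 (adjusted p = 0.0165), from 0.931, 1.25 and 0.822 to 1.59, 2.22 and 2.19; its call ended without WT replicate 3 or STAT5b-/- replicate 2 or 3 (up to 0.0705). Among lysosomal enzymes the cathepsins Ctsz and Ctsd rose by 0.68 ± 0.11 and 0.68 ± 0.14 (adjusted p = 0.00710 and 0.0172; for Ctsd up to 0.0738 when an array was left out). Over the whole list of 17 lysosome and phagocytosis genes 3 fell and 3 rose, against 8.42% and 13.3% of all genes, and the median was 0.14 (0.25 without WT replicate 2). REF lay at 1.17 for Cyba, within the range of the WT arrays, and at 0.910 for Cybb.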
